A study of Rattus norvegicus with 9 samples.

Results

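The cytochrome P450 genes of families 1 to 4 were followed in bulk liver RNA of rats with acute-on-chronic liver failure (ACLF). The members were all protein-coding genes of the deposited tables whose symbol is Cyp, a family digit from 1 to 4, a subfamily letter and a number. This gave 53 of 22250 protein-coding genes (32883 genes in all), in 21 subfamilies, of which 45 had enough counts to be tested. Of the other 8, Cyp2b12, Cyp2b15, Cyp2g1 and Cyp2j16 were at 0 counts in all 9 livers, and Cyp2b21, Cyp2w1, Cyp4f40 and Cyp4x1 reached at most 7 counts in a liver. Names follow the deposited tables, and by gene ID the members listed there as Cyp2d3 and Cyp2j4 match RefSeq entries named Cyp2d1 and Cyp2j3, while Cyp2c6v1 matches an entry with a locus number in place of a symbol.

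Livers came from 3 normal rats, 3 ACLF rats of the empty group and 3 ACLF rats of the UTOpiA group. All were male Sprague-Dawley rats, young adults according to the study's methods, and the treatment of normal rats is not given in the sources used here. Both ACLF groups had bile duct ligation for 21 days, then lipopolysaccharide at 0.25 mg/kg, then 2 h of extracorporeal whole blood circulation, and their livers were taken 24 h after lipopolysaccharide. In the empty group blood ran through the same circuit with an empty column, without cells and without adsorbing material, whereas in the UTOpiA group it held a granulocyte and monocyte adsorbing column in tandem with alginate-encapsulated human iPSC-derived hepatocyte-like cells. The livers were drawn from rats that survived to sampling, so rats that died earlier are not represented in either ACLF group. Between 14241172 and 17321677 reads were counted per liver. The labels call the livers biological replicates.

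P450 enzymes of these families are haem proteins of the endoplasmic reticulum that oxidise drugs, pollutants, steroids, retinoids and fatty acids, with electrons passed to them by P450 reductase (Por) and cytochrome b5 (Cyb5a). They are mostly made in hepatocytes, and many are switched on by nuclear receptors or by the aryl hydrocarbon receptor (AhR) when their ligands arrive. In rats several members differ between the sexes because the pituitary releases growth hormone in pulses in males and more steadily in females, and inflammation is known to lower many of them.

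The summed P450 message was lower in every ACLF liver than in every normal liver. The summed level of the 53 members, in TPM (transcript abundance scaled by gene length and library size), was 15389, 14688 and 15935 in normal livers, 5041, 11714 and 3887 in empty livers and 11252, 6555 and 7917 in UTOpiA livers, each in the order of replicates 1 to 3. Empty replicate 2 was above all 3 UTOpiA livers, and the empty and UTOpiA groups overlapped. Means over 3 livers were 15337 ± 625 (SD) for normal, 6881 ± 4226 for empty and 8575 ± 2416 for UTOpiA. The mean of the empty group was 0.449 times that of normal livers, and the mean of the UTOpiA group was 0.559 times that of normal livers and 1.25 times that of the empty group.

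**Figure D1:**
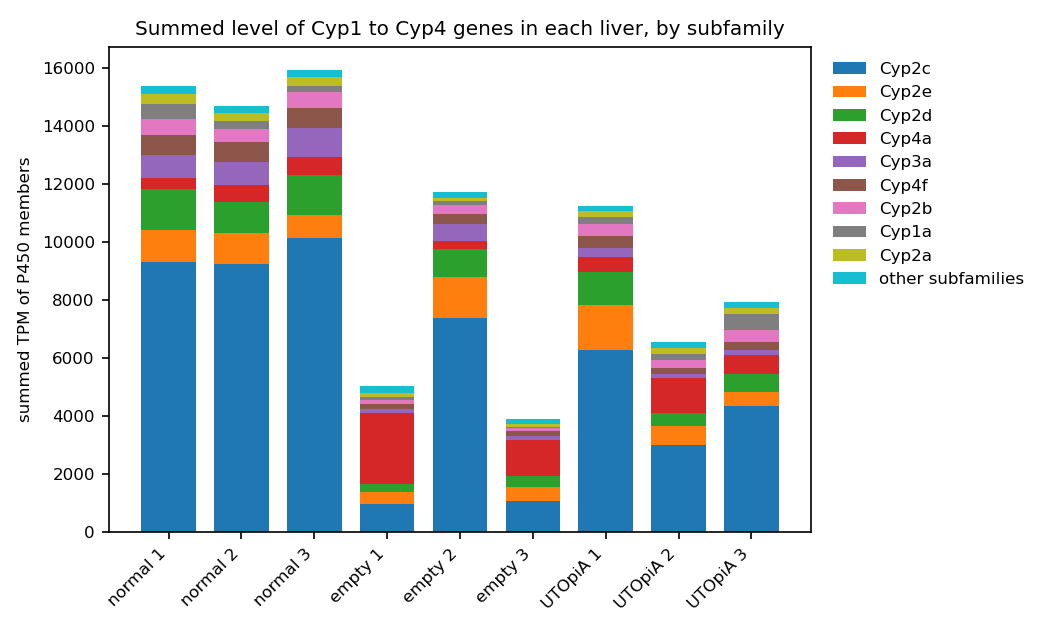
Bars show the summed TPM of the P450 members in each of the 9 livers, stacked by subfamily (9 subfamilies and the rest together). The 3 normal livers stand between 14688 and 15935 TPM, empty replicates 1 and 3 at 5041 and 3887, and empty replicate 2 at 11714, with Cyp2c the largest block in every liver except empty replicates 1 and 3, where Cyp4a is larger.

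Empty replicate 2 stood apart from the other empty livers. On TPM it was the highest of its group for 26 of the 45 tested members, against 36.3% of all genes. The same held for 14 of the 19 members called lower in empty vs normal. Albumin took 3.91% of its counts, against 1.65% and 1.58% in empty replicates 1 and 3 and 13.3% to 14.9% in normal livers. In the UTOpiA group replicate 2 was the lowest of the group for 23 of the 45 members, with albumin at 1.54% of its counts. Over all genes that liver was the highest of its group for 64.7%. Where leaving out 1 of these livers changed the edgeR call of a gene described below, the value without it is given.

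Markers of other cell types also differed between ACLF and normal livers. Cholangiocyte markers summed to 25.4 to 35.5 TPM in normal livers, 344 to 712 in empty livers and 149 to 462 in UTOpiA livers, and 7 of 8 were called higher in the empty group (20.7% of all genes were). Markers of stellate cells and fibroblasts (6 of 8 called higher), macrophages (5 of 6) and neutrophils (4 of 4 tested) were also higher, and the neutrophil list summed to 2.26 to 5.92 TPM in normal livers and 182 to 1092 in the empty group, although the granule genes Mpo and Elane stayed below 1 TPM in all livers. Hepatocyte markers, all 13 of them detected, summed to 177427 to 193666 TPM in normal livers, 59594 to 91217 in empty livers and 66884 to 88842 in UTOpiA livers. In the empty group 6 were called lower (11.1% of all genes) and 1 (Fgb, an acute-phase gene) higher (20.7%). Their part in the P450 results was not tested. In bulk RNA, fewer hepatocytes and less P450 message per hepatocyte cannot be told apart.

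The empty group was compared with normal livers. It differed from them in ACLF and in the extracorporeal circulation, so the parts of these in the values below cannot be told apart. Of the 45 tested members, 19 were called lower and 6 higher, where a call needs more than a 2-fold difference and an adjusted p below 0.05, adjusted over 14089 genes (edgeR quasi-likelihood test). Among all genes tested 11.1% were called lower and 20.7% higher. The median log2 fold change was -1.35 over the members and 0.04 over all genes. Without empty replicate 2, 27 members were called lower (12.3% of all genes) and 9 higher (20.4%). The members called higher were Cyp1b1, Cyp2c24, Cyp3a62, Cyp4b1, Cyp4f5 and Cyp4f18.

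**Figure D2:**
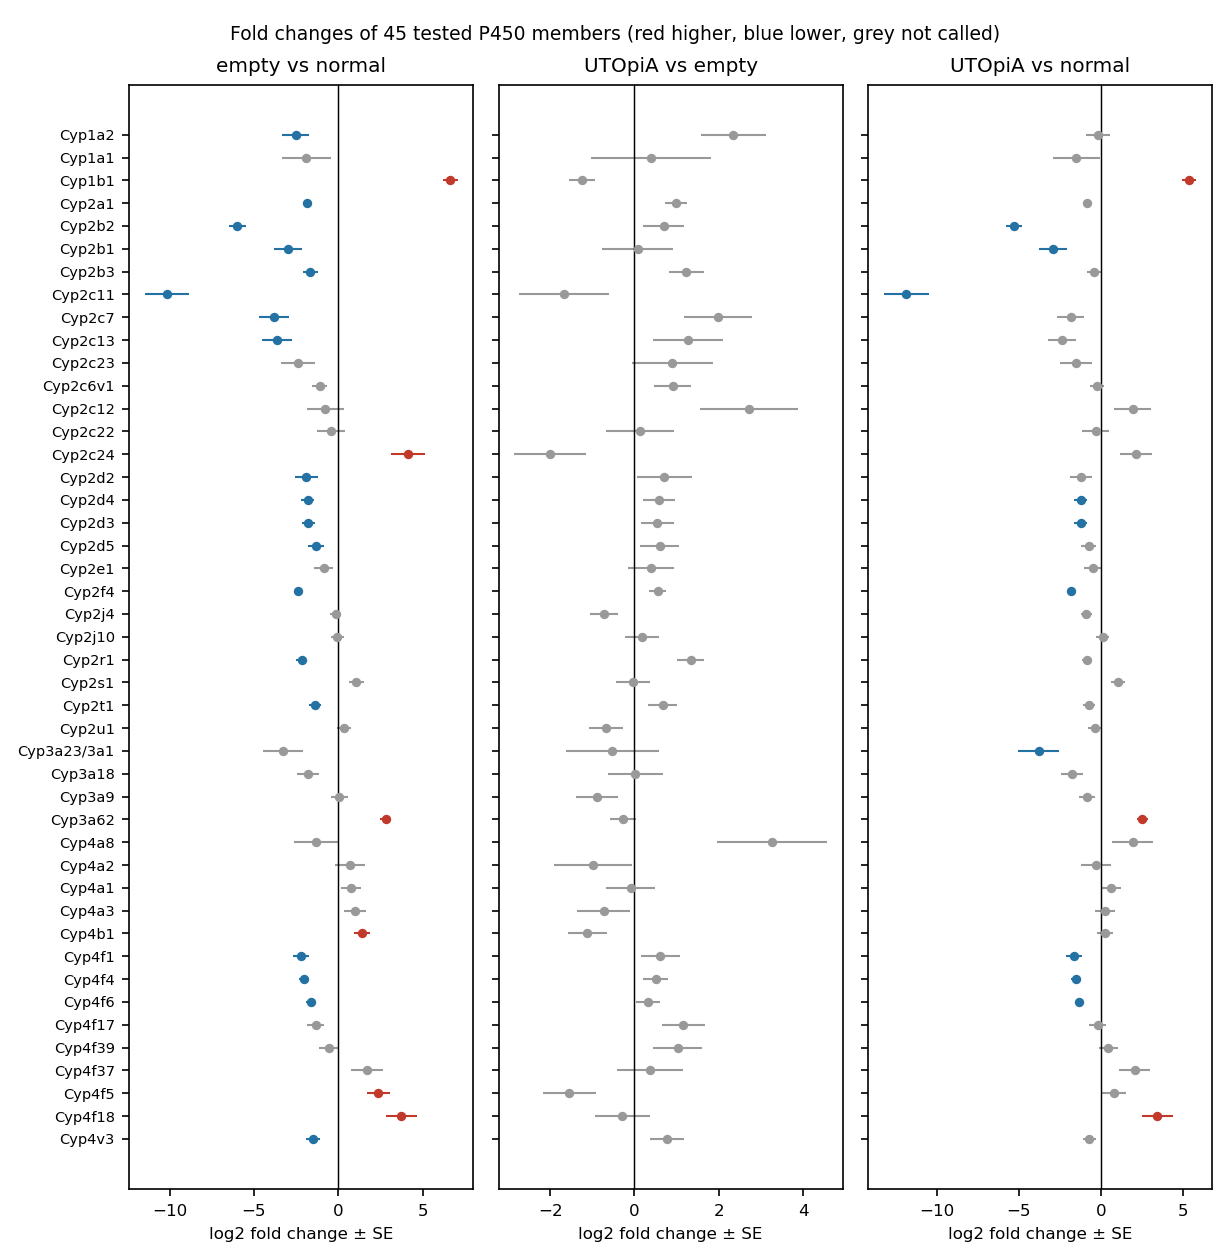
Points show the log2 fold change of each of the 45 tested members, with its standard error as a line, for empty vs normal, UTOpiA vs empty and UTOpiA vs normal, and the x axes differ in range. Red and blue points passed the test as higher (6, 0 and 3) or lower (19, 0 and 10), and grey points did not.

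Cyp2c was the most abundant subfamily of normal livers. Its 8 members summed to 9309.7, 9224 and 10137 TPM in normal livers, 952, 7366 and 1060.3 TPM in the empty group and 6287, 3007 and 4349 TPM in the UTOpiA group, with empty replicate 2 near the normal level and the other empty livers far below it. In normal livers Cyp2c took 60.5% to 63.6% of the summed P450 TPM, and in empty replicates 1 and 3 it took 18.9% and 27.3%. Of the 8 members, 3 were called lower in the empty group (Cyp2c7, Cyp2c11 and Cyp2c13, 11.1% of all genes) and 1 higher (Cyp2c24, 20.7%). When empty replicate 2 was left out, edgeR called 7 of the 8 lower (12.3% of all genes) and Cyp2c24 higher (20.4%).

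Cyp2c11, the main male-specific P450 of rat liver and a testosterone hydroxylase, showed the largest change of all members. Its TPM were 2107, 2227 and 1989.8 in normal livers, 0.708, 6.7 and 0.375 in empty livers and 1.26, 0.127 and 0.702 in UTOpiA livers. All 6 ACLF livers were far below the normal livers, including empty replicate 2, and the ACLF groups overlapped. It fell in the empty group (log2 fold change -10.17 ± 1.29 SE, adjusted p = 0.000462 by edgeR) and in the UTOpiA group (log2 fold change -11.84 ± 1.39 SE, adjusted p = 0.000504 by edgeR). Cyp2c11 took 13.7, 15.2 and 12.5% of the summed P450 TPM in normal livers, the highest mean of any member there, and under 0.1% in each ACLF liver. Its highest count in the empty group was 105, in replicate 2, without which the log2 fold change was -12.41. In UTOpiA vs empty the log2 fold change of Cyp2c11 was -1.67 (adjusted p = 0.627 by edgeR), and it turned to 0.55 without empty replicate 2.

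Cyp2c13, another male-specific member, was at 1991, 1915 and 2177 TPM in normal livers, 52.1, 572 and 72.3 TPM in the empty group and 623, 299 and 507 TPM in the UTOpiA group. Every ACLF liver was below every normal liver, with empty replicates 1 and 3 lowest of all. It fell in the empty group (log2 fold change -3.63 ± 0.91 SE, adjusted p = 0.0103 by edgeR). In UTOpiA vs empty it did not pass the test (log2 fold change 1.28 ± 0.83 SE, adjusted p = 0.632 by edgeR), but it was called higher without empty replicate 2 (log2 fold change 3.22, adjusted p = 0.0421). Adjusted p over the alternatives to that comparison ran from 1.24e-15 to 1.

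The female-specific Cyp2c12, a steroid sulphate hydroxylase, moved otherwise. Its TPM were 191, 85.7 and 129.7 in normal livers, 10, 312 and 16.3 in empty livers and 533, 609 and 757 in UTOpiA livers. All 3 UTOpiA livers were above every normal and every empty liver, and the empty group was split, with replicate 2 above the normal livers and the other 2 below them. Neither UTOpiA vs empty (log2 fold change 2.72 ± 1.16 SE, adjusted p = 0.469 by edgeR) nor UTOpiA vs normal (log2 fold change 1.95 ± 1.13 SE, adjusted p = 0.199 by edgeR) passed the test. Without empty replicate 2 both did, UTOpiA vs empty with log2 fold change 5.87, adjusted p = 0.0085 and UTOpiA vs normal with log2 fold change 1.95, adjusted p = 0.00272. Cyp2c12 was then also called lower in empty vs normal (log2 fold change -3.92, adjusted p = 0.000275). The liver left out is in neither group of UTOpiA vs normal, where it acts through the count filter, the set of genes tested and the shared estimate of the spread. Adjusted p over the alternatives ran from 4.72e-46 to 0.832 in UTOpiA vs empty and from 2.45e-07 to 0.379 in UTOpiA vs normal. DESeq2 with all 9 livers gave Cyp2c12, Cyp2c13 and Cyp2c24 no adjusted p in any of the 3 comparisons, so it made no call of them.

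The 300 bases around the RefSeq start of these 3 genes are shown because these related genes on chromosome 1 differed so much. They run from 250 bases before the start to 50 after it, 5′ to 3′ on the gene's strand, from the RefSeq table for GRCr8, at chr1:246174966-246175265, plus strand for Cyp2c11, chr1:248676985-248677284, minus strand for Cyp2c12 and chr1:248787139-248787438, minus strand for Cyp2c13. Capitals mark any match, on either strand, to GCGTG (the core of the AhR element), CAAAGTCCA (a site of HNF4, the hepatocyte nuclear factor), GTTAAT (a half-site of HNF1) or AGGTCA (the half-site of many nuclear receptors).
Cyp2c11: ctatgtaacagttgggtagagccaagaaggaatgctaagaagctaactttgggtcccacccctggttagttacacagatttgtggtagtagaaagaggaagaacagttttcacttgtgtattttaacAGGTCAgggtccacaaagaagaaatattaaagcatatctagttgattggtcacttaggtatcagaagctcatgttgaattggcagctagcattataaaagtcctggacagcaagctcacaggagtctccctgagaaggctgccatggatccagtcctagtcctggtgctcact
Cyp2c12: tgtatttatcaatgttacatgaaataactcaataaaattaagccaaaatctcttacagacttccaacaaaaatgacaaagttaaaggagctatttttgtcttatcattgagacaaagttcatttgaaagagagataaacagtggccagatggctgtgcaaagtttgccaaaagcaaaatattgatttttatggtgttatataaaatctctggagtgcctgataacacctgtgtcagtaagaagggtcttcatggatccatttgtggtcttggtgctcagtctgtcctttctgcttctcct
Cyp2c13: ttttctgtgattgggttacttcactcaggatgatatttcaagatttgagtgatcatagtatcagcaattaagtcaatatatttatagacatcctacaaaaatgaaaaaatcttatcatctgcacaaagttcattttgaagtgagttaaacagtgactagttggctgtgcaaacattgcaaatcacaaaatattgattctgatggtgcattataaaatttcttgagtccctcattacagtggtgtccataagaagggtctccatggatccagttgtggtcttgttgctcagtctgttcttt
Cyp2c12 and Cyp2c13, female- and male-specific, shared 224 aligned bases (74.7%), more than either shared with Cyp2c11 (61.0% and 61.7%). Only the Cyp2c11 window held a match, AGGTCA at base -123 from the start. A match is a description of the letters, not evidence of binding.

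The other Cyp2c members were spread between these patterns. Cyp2c7, a female-predominant retinoic acid hydroxylase, was at 1912, 1291 and 1878 TPM in normal livers, 109, 359 and 39.5 TPM in the empty group and 523, 250.3 and 847 TPM in the UTOpiA group, below the normal livers in all ACLF livers, and fell in the empty group (log2 fold change -3.82 ± 0.87 SE, adjusted p = 0.00675 by edgeR). Cyp2c24 was at 0.44, 0.828 and 1.58 TPM in normal livers, 5.35, 58.7 and 7.38 TPM in the empty group and 5.21, 5.61 and 4.8 TPM in the UTOpiA group, so that all ACLF livers were above the normal livers, and it rose in the empty group (log2 fold change 4.12 ± 0.99 SE, adjusted p = 0.00882 by edgeR). Its high value was in empty replicate 2, without which the log2 fold change was 2.18. Cyp2c22, a retinoic acid hydroxylase and the most abundant member over the 9 livers, was at 1376, 1901 and 2232 TPM in normal livers, 467, 4653 and 640.2 TPM in the empty group and 2931, 1205 and 1329 TPM in the UTOpiA group. Empty replicate 2 was the highest of all 9 for Cyp2c22, the groups overlapped, and with all 9 livers no comparison of it passed the test. Without empty replicate 2 it was called lower in the empty group (log2 fold change -2.28, adjusted p = 0.00325). Cyp2c22 made up 9.27, 39.7 and 16.5% of the summed P450 TPM in the empty group and 8.94, 12.9 and 14% in normal livers. Cyp2c23, an arachidonic acid epoxygenase, was at 1191, 1345 and 1229 TPM in normal livers, 54.6, 855 and 109 TPM in the empty group and 1067, 217 and 357 TPM in the UTOpiA group, with every ACLF liver below the normal livers, and was not called in the empty group by edgeR (adjusted p = 0.0789). It was called lower there by DESeq2 (adjusted p = 0.0303) and by edgeR without empty replicate 2 (log2 fold change -4.50, adjusted p = 0.00163), and the adjusted p over the alternatives ran from 4.51e-15 to 0.182. The phenobarbital-inducible Cyp2c6v1 was at 543, 457 and 499.8 TPM in normal livers, 253, 551 and 175 TPM in the empty group and 604, 421 and 547 TPM in the UTOpiA group and did not pass the test in the empty group by edgeR (adjusted p = 0.0574). It was called lower there by DESeq2 (adjusted p = 0.0186), and by edgeR without empty replicate 2 (log2 fold change -1.74, adjusted p = 0.00382) or UTOpiA replicate 2 (log2 fold change -1.12, adjusted p = 0.0477).

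**Figure D3:**
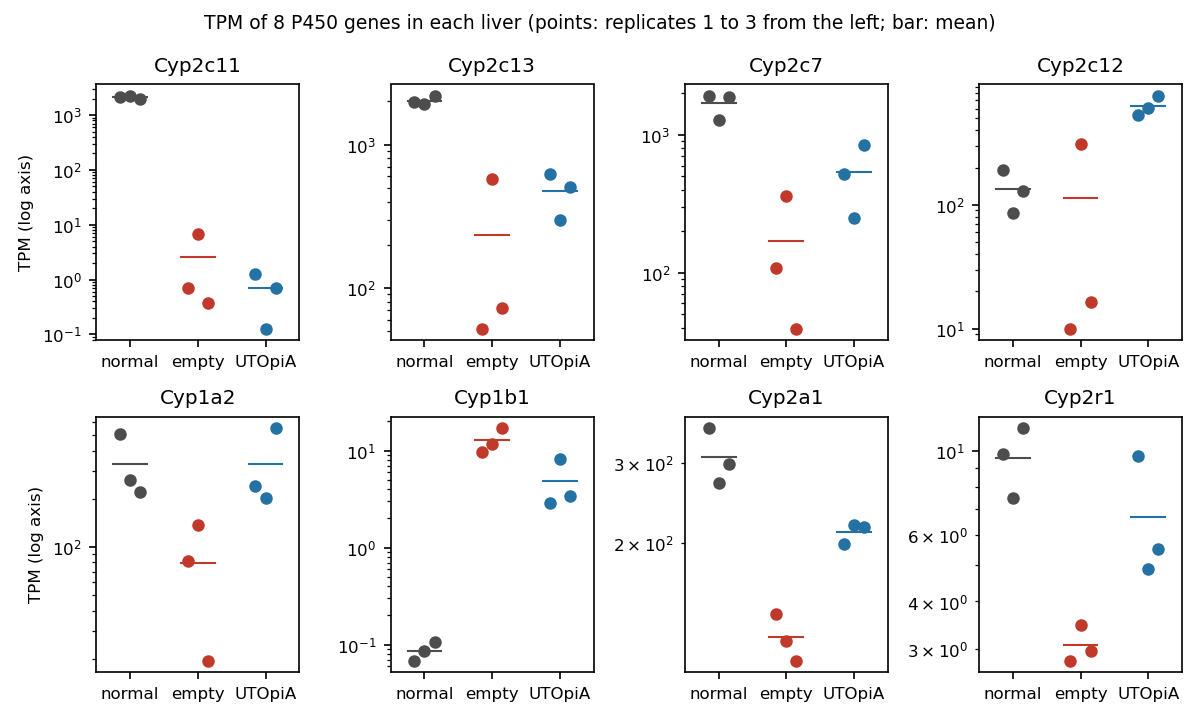
Points show the TPM of 8 members in each liver on log axes, with replicates 1 to 3 from left to right in each group and bars at the group means. Cyp2c11 lies below 10 TPM in all 6 ACLF livers, Cyp2c12 lies between 533 and 757 TPM in the UTOpiA group, and Cyp1b1 lies at about 0.1 TPM or less in normal livers.

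In family 1, whose members are the classical targets of AhR, the genes went opposite ways. Cyp1a2, the hepatic enzyme for caffeine and aromatic amines, was at 504, 262 and 220.5 TPM in normal livers, 82.2, 137 and 19.4 in empty livers and 239, 203 and 550.1 in UTOpiA livers. All empty livers were below all normal and all UTOpiA livers, and the normal and UTOpiA groups overlapped. Cyp1a2 fell in the empty group (log2 fold change -2.53 ± 0.78 SE, adjusted p = 0.026 by edgeR), a call lost without normal replicate 1 (log2 fold change -2.09, adjusted p = 0.0764) or without empty replicate 1 (log2 fold change -2.59, adjusted p = 0.0644). Adjusted p over the alternatives ran from 8.60e-05 to 0.0764. Cyp1a1, the more inducible form, varied widely within each ACLF group, at 20, 0.206 and 0.605 TPM in empty livers and 1.35, 3.82 and 16.8 TPM in UTOpiA livers against 26.4, 21.8 and 9.06 in normal livers. It passed no test with all 9 livers, and was called lower in the empty group without empty replicate 1 (log2 fold change -6.11, adjusted p = 0.0112).

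Cyp1b1, which acts mostly outside hepatocytes, rose the most of all members. It was at 0.0682, 0.0856 and 0.106 TPM in normal livers, 9.6, 11.8 and 16.9 in empty livers and 2.86, 8.18 and 3.43 in UTOpiA livers. The 3 groups did not overlap, with every UTOpiA liver between the normal and the empty livers. It rose in the empty group (log2 fold change 6.63 ± 0.44 SE, adjusted p = 4.10e-05 by edgeR) and in the UTOpiA group (log2 fold change 5.39 ± 0.44 SE, adjusted p = 8.90e-05 by edgeR). The counts behind the normal livers were only 3, 4 and 5, so these folds rest on few reads. Transcripts of Ahr itself were at 13.3, 13.4 and 11.1 TPM in normal livers, 32.4, 32.3 and 33.5 TPM in the empty group and 20.9, 39.7 and 25 TPM in the UTOpiA group, and its log2 fold change in the empty group was 0.86 ± 0.18 (adjusted p = 0.00438 by edgeR), below the 2-fold threshold. Ahr passed that threshold as higher in all 3 limma fits on TPM and with library totals only (log2 fold change up to 1.41). The Cyp1b1 window (chr6:21094315-21094614, plus strand) is shown because GCGTG, the core of the AhR element, occurs in it at base -81 on the opposite strand, where it is printed as its reverse complement, and at base -20.
Cyp1b1: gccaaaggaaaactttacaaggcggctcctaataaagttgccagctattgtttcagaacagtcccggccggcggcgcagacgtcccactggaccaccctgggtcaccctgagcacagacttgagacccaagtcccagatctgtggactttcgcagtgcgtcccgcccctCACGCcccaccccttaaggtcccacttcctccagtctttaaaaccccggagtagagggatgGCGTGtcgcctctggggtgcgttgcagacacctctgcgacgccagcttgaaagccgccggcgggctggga
Among 33469 promoters of the same length in the table, 29.7% held GCGTG on either strand, against 13 of the 48 members with a promoter there (27.1%).

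Cyp2a1, a female-predominant testosterone hydroxylase, was at 358, 272 and 299 TPM in normal livers, 139.6, 122 and 109.8 in empty livers and 199, 219 and 217 in UTOpiA livers. The 3 groups did not overlap, with the UTOpiA livers in the middle and little spread in any group. Cyp2a1 fell in the empty group (log2 fold change -1.83 ± 0.26 SE, adjusted p = 0.000553 by edgeR). It was not called in UTOpiA vs normal with all 9 livers, and was called lower there without UTOpiA replicate 3 (log2 fold change -1.04, adjusted p = 0.0153).

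The Cyp2b genes include the classical phenobarbital-induced enzymes, driven through the receptor CAR (Nr1i3). Cyp2b2 was at 112, 87.1 and 79.6 TPM in normal livers, 1.07, 3.96 and 1.27 TPM in the empty group and 3, 2.23 and 3.39 TPM in the UTOpiA group. Every ACLF liver had under 4 TPM, and the empty and UTOpiA groups overlapped. It fell in the empty group (log2 fold change -5.98 ± 0.52 SE, adjusted p = 8.91e-05 by edgeR) and in the UTOpiA group (log2 fold change -5.29 ± 0.50 SE, adjusted p = 0.000193 by edgeR). Its close relative Cyp2b1, whose RefSeq promoter window is 91.7% identical, was at 7.76, 12.6 and 6.48 TPM in normal livers, 2.01, 1.63 and 1.15 TPM in the empty group and 0.248, 4.43 and 0.271 TPM in the UTOpiA group and also fell in the empty group (log2 fold change -2.98 ± 0.85 SE, adjusted p = 0.0183 by edgeR), a call lost without normal replicate 2 (log2 fold change -2.67, adjusted p = 0.0555) or empty replicate 3 (log2 fold change -2.75, adjusted p = 0.0604). Adjusted p over the alternatives ran from 2.16e-13 to 0.0604. Reads that fit both Cyp2b1 and Cyp2b2 were left out of unique counting, so the share of each is uncertain, and the deposited table places Cyp2b1 on chromosome 7 whereas RefSeq lists it on chromosome 1. Cyp2b3, by contrast, was at 419, 348 and 445 TPM in normal livers, 143, 299.98 and 104 TPM in the empty group and 430.1, 278 and 388 TPM in the UTOpiA group. It fell in the empty group (log2 fold change -1.65 ± 0.42 SE, adjusted p = 0.0102 by edgeR), and its UTOpiA livers overlapped the normal and the empty livers. Nr1i3 was at 37.2, 37.8 and 27 TPM in normal livers, 36.7, 26.4 and 31 TPM in the empty group and 50.1, 28.4 and 33.8 TPM in the UTOpiA group and did not pass the test (log2 fold change -0.63 ± 0.27, adjusted p = 0.0785 by edgeR in the empty group).

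All 4 Cyp2d genes, the rat relatives of the human debrisoquine hydroxylase, were called lower in the empty group (11.1% of all genes). They summed to 1416, 1061 and 1408 TPM in normal livers, 267, 973 and 380.2 TPM in the empty group and 1129.9, 439 and 608 TPM in the UTOpiA group, with empty replicate 2 and UTOpiA replicate 1 closest to the normal livers. Cyp2d3 was at 260, 244 and 252 TPM in normal livers, 85.4, 154 and 75.2 TPM in the empty group and 175, 81.4 and 132 TPM in the UTOpiA group. It fell in the empty group (log2 fold change -1.78 ± 0.39 SE, adjusted p = 0.00502 by edgeR). Cyp2d2, the most abundant of the 4, varied more (log2 fold change -1.91 ± 0.68 SE, adjusted p = 0.0426 by edgeR). Its call was lost in 11 of 26 alternatives. The Cyp2d2 call was lost without any of the normal livers, without empty replicate 1 (log2 fold change -1.52, adjusted p = 0.0985), without empty replicate 3 (log2 fold change -1.62, adjusted p = 0.125) and without UTOpiA replicate 3 (log2 fold change -1.92, adjusted p = 0.0592). Without normal replicates 1, 2 and 3 in turn, its adjusted p was 0.0907, 0.0691 and 0.0881, and over all alternatives it ran from 2.24e-10 to 0.125. The call of Cyp2d5 (log2 fold change -1.35 ± 0.47 SE, adjusted p = 0.0398 by edgeR) was lost in 15 of 26 alternatives, with an adjusted p by edgeR of 0.0996 and 0.13 without normal replicates 1 and 3, 0.111 and 0.106 without empty replicates 1 and 3, and 0.053 and 0.0515 without UTOpiA replicates 1 and 3. Its adjusted p over the alternatives, limma and DESeq2 included, ran from 0.000469 to 0.229. Cyp2e1, which oxidises ethanol and paracetamol, was at 1119, 1081 and 784 TPM in normal livers, 427, 1414 and 478 TPM in the empty group and 1546, 643 and 489 TPM in the UTOpiA group. The 3 groups overlapped for Cyp2e1, with empty replicate 2 and UTOpiA replicate 1 above the normal livers, and it did not pass the test in the empty group (adjusted p = 0.211 by edgeR), but was called lower without empty replicate 2 (log2 fold change -1.67, adjusted p = 0.0142).

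Among the single-gene subfamilies, Cyp2f4, a naphthalene-oxidising enzyme best known from lung, was at 40.8, 36.9 and 39.8 TPM in normal livers, 9.16, 11.7 and 11.8 TPM in the empty group and 19, 12.5 and 10.1 TPM in the UTOpiA group. It fell in the empty group (log2 fold change -2.37 ± 0.21 SE, adjusted p = 8.04e-05 by edgeR) and in the UTOpiA group (log2 fold change -1.82 ± 0.21 SE, adjusted p = 0.000331 by edgeR), in every ACLF liver, empty replicate 2 included. Cyp2r1, the microsomal vitamin D hydroxylase, was at 9.83, 7.51 and 11.5 TPM in normal livers, 2.79, 3.47 and 2.96 in empty livers and 9.71, 4.87 and 5.52 in UTOpiA livers. All empty livers were below all others, and the UTOpiA livers overlapped the normal livers through replicate 1. It fell in the empty group (log2 fold change -2.16 ± 0.32 SE, adjusted p = 0.000748 by edgeR). Cyp2t1 (log2 fold change -1.39 ± 0.35 SE, adjusted p = 0.0105 by edgeR) and Cyp4v3, a fatty acid hydroxylase (log2 fold change -1.49 ± 0.41 SE, adjusted p = 0.0142 by edgeR), were also called lower in the empty group, but the span of Cyp2t1 overlaps the antisense gene Egln2. With library totals only both calls were lost (log2 fold change -0.84 for Cyp2t1 and -0.97 for Cyp4v3), and that of Cyp2t1 also in all 3 limma fits on TPM. Cyp2j4, an arachidonic acid epoxygenase, was at 48, 45.3 and 39.5 TPM in normal livers, 85.3, 27.6 and 54.5 TPM in the empty group and 28.6, 37.3 and 24.5 TPM in the UTOpiA group, and Cyp2j10 at 30.5, 23.2 and 21.3 TPM in normal livers, 26.3, 54.9 and 20.3 TPM in the empty group and 48.5, 36.9 and 18.4 TPM in the UTOpiA group. Neither passed a test with all 9 livers. The groups overlapped for Cyp2j10, and the UTOpiA livers were all below the normal livers for Cyp2j4. Cyp2s1 and Cyp2u1 stayed below 4 TPM in every liver. Their empty livers were above their normal livers on the TPM scale. Cyp2u1 was not called, and neither was Cyp2s1 by edgeR in the empty group (adjusted p = 0.0625). Cyp2s1 was called higher there by DESeq2 (adjusted p = 0.0448) and by edgeR without empty replicate 2 (log2 fold change 1.29, adjusted p = 0.0334), and the adjusted p over the alternatives ran from 0.0204 to 0.258.

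In the Cyp3a subfamily, whose leading members are induced through PXR (Nr1i2), edgeR with all 9 livers called 1 of 4 genes higher and 0 lower in empty livers (20.7% and 11.1% of all genes), and 1 higher and 1 lower in UTOpiA vs normal (18.2% and 6.81%). DESeq2 with all livers (10.1% of all genes lower and 19.8% higher) and edgeR without empty replicate 2 each called Cyp3a18 and Cyp3a23/3a1 lower and Cyp3a62 higher in the empty group. The subfamily summed to 811, 820.1 and 1002 TPM in normal livers, 145, 599 and 111 TPM in the empty group and 297, 154 and 182 TPM in the UTOpiA group. Cyp3a23/3a1, the main PXR-induced gene of the rat, was at 518, 469.8 and 557 TPM in normal livers, 9.64, 207 and 10.1 in empty livers and 84.2, 17.9 and 33.6 in UTOpiA livers. Every ACLF liver was below the normal livers, with empty replicate 2 the highest of them. In empty vs normal it was just outside the threshold (log2 fold change -3.27 ± 1.20 SE, adjusted p = 0.0504 by edgeR) by edgeR, and was called lower by DESeq2 (adjusted p = 0.0118) and by edgeR without empty replicate 2 (log2 fold change -6.24, adjusted p = 0.000391). Adjusted p over the alternatives ran from 7.37e-32 to 0.123. It was called lower in UTOpiA vs normal (log2 fold change -3.80 ± 1.23 SE, adjusted p = 0.0381 by edgeR), a call lost when any normal or UTOpiA liver was left out, with an adjusted p of 0.0696, 0.069 and 0.0735 without normal replicates 1 to 3 and 0.0555, 0.13 and 0.1 without UTOpiA replicates 1 to 3. In UTOpiA vs empty its log2 fold change was -0.52 (adjusted p = 0.908 by edgeR), and 2.44 without empty replicate 2, where DESeq2 called it higher (log2 fold change 2.41, adjusted p = 0.000288). The gene overlaps a noncoding transcript on the same strand with up to 14372 counts in a liver, so its own count is uncertain. Its window (chr12:14398754-14399053, minus strand) is shown because it was the only one of the 48 member windows with CAAAGTCCA, the HNF4 site (0.391% of all promoters), and also held AGGTCA, which 16.2% of all promoters and 16 of the 48 members held.
Cyp3a23/3a1: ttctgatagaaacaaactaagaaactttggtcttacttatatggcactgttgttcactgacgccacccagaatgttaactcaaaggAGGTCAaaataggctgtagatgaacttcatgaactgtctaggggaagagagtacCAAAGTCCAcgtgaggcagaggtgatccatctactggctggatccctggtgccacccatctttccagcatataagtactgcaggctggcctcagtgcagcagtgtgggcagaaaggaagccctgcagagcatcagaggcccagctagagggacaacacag
GTTAAT was in 5 of the 48 members and in 7.45% of all promoters. CAAAGTCCA starts at base -110 and AGGTCA at base -164, and they do not overlap.

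Cyp3a62 went the other way. It was at 6.14, 2.75 and 4.45 TPM in normal livers, 44.7, 55.8 and 31 in empty livers and 37.3, 31.4 and 26.5 in UTOpiA livers. All ACLF livers were above all normal livers, and the ACLF groups overlapped. It rose in the empty group (log2 fold change 2.79 ± 0.34 SE, adjusted p = 0.000294 by edgeR) and in the UTOpiA group (log2 fold change 2.52 ± 0.33 SE, adjusted p = 0.000688 by edgeR). Cyp3a18, a male-predominant testosterone hydroxylase, was at 273, 314 and 431 TPM in normal livers, 55.6, 306 and 53.7 TPM in the empty group and 164, 92.8 and 108 TPM in the UTOpiA group and missed the threshold in the empty group by edgeR (adjusted p = 0.0522). It was called lower there in 9 of 26 alternatives, among them DESeq2 (adjusted p = 0.00813) and edgeR without empty replicate 2 (log2 fold change -3.16, adjusted p = 0.000211), and the adjusted p over the alternatives ran from 2.48e-20 to 0.129. The female-predominant Cyp3a9 was at 13.9, 33.6 and 8.6 TPM in normal livers, 35.4, 30.1 and 16.4 TPM in the empty group and 11.8, 11.9 and 14.3 TPM in the UTOpiA group, and passed no test with all 9 livers. On TPM its UTOpiA livers were all below the empty livers, whereas on normalised counts these groups overlapped. The normal livers overlapped both ACLF groups. Nr1i2 was at 94.2, 84.4 and 83.3 TPM in normal livers, 62.1, 71.6 and 59.8 TPM in the empty group and 91.1, 47.9 and 89.3 TPM in the UTOpiA group, and its log2 fold change in the empty group was -0.95 ± 0.31 (adjusted p = 0.0306 by edgeR), below the 2-fold threshold, which it passed without empty replicate 2 (log2 fold change -1.05, adjusted p = 0.0422).

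Family 4 oxidises fatty acids and eicosanoids at the end of the chain. The 4 Cyp4a genes, which answer to the fatty acid receptor PPARα (Ppara), summed to 354, 589 and 605 TPM in normal livers, 2436, 276 and 1259.6 TPM in the empty group and 524, 1204 and 653 TPM in the UTOpiA group. Empty replicates 1 and 3 and UTOpiA replicate 2 were far above the normal livers, whereas empty replicate 2 was below them. Empty replicate 2 had the highest level of the empty livers in 9 of the other 17 subfamilies with a tested member. Cyp4a took 48.3% and 32.4% of the summed P450 TPM in empty replicates 1 and 3, and at most 4.01% in normal livers. Cyp4a3 was at 205, 321 and 299 TPM in normal livers, 1399, 176 and 729.96 TPM in the empty group and 272, 700.5 and 306 TPM in the UTOpiA group. Cyp4a1 was at 85.4, 156 and 132 TPM in normal livers, 405, 62.6 and 429.9 TPM in the empty group and 183, 315 and 234 TPM in the UTOpiA group. Cyp4a2 was at 63.5, 112 and 172 TPM in normal livers, 631, 37.3 and 99.1 TPM in the empty group and 68.9, 187 and 104 TPM in the UTOpiA group. The minor Cyp4a8 stayed below 10 TPM, with its high value in UTOpiA replicate 3. The log2 fold change of Cyp4a2 in the empty group was 0.68, and -1.36 without empty replicate 1, where DESeq2 called it lower (log2 fold change -1.34, adjusted p = 0.0302). None of the 4 genes was called in a comparison of all 9 livers, while Cyp4a1 (log2 fold change 1.21, adjusted p = 0.00698) and Cyp4a3 (log2 fold change 1.45, adjusted p = 0.0161) were called higher in the empty group without replicate 2. Ppara itself was at 32.6, 30.3 and 25 TPM in normal livers, 31.5, 13.2 and 16.3 TPM in the empty group and 14.7, 12.3 and 16.4 TPM in the UTOpiA group and was called lower in the empty group (log2 fold change -1.02 ± 0.36 SE, adjusted p = 0.0432 by edgeR), a call lost without any of the normal livers, empty replicate 2 or 3 or UTOpiA replicate 1 (adjusted p = 0.0626 to 0.132 by edgeR). It was below the 2-fold threshold without empty replicate 2 (log2 fold change -0.79, adjusted p = 0.108), and the call was also lost in all 3 limma fits on TPM and with library totals only.

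Of the 8 tested Cyp4f genes, 3 were called lower in the empty group and 2 higher (11.1% and 20.7% of all genes). The abundant members, hydroxylases of leukotrienes and fatty acids, fell, with Cyp4f1 at 442, 443 and 484 TPM in normal livers, 91.5, 236 and 88.5 TPM in the empty group and 282, 112 and 152 TPM in the UTOpiA group (log2 fold change -2.23 ± 0.48 SE, adjusted p = 0.00491 by edgeR) and Cyp4f4 at 157, 145 and 116 TPM in normal livers, 52.3, 49.4 and 45.4 TPM in the empty group and 69.2, 40.3 and 65.5 TPM in the UTOpiA group (log2 fold change -2.02 ± 0.30 SE, adjusted p = 0.000714 by edgeR). For Cyp4f4 no ACLF liver reached the normal livers. Cyp4f18, the form known from neutrophils, had 0, 1 and 2 counts in normal livers, 15, 9 and 48 in empty livers and 15, 14 and 17 in the UTOpiA group, was called higher in both ACLF groups (adjusted p = 0.00842 and 0.0168 by edgeR), and is given without a fold because the normal livers were at or below 3 counts. The second call was lost without normal replicate 1 (adjusted p = 0.0525) or replicate 2 (adjusted p = 0.0566). Its counts stood beside the neutrophil markers given above, whose part was not tested. Cyp4f5 had 5, 5 and 1 counts in normal livers and 41, 12 and 42 in the empty group and was called higher there (log2 fold change 2.35 ± 0.69 SE, adjusted p = 0.0188 by edgeR), a call lost without normal replicate 3 (adjusted p = 0.0625), empty replicate 1 (0.0591) or empty replicate 3 (0.0589). It overlaps Cyp4f17 on the same strand. Cyp4b1, which oxidises fatty acids and is best known from lung, was at 5.39, 4.18 and 4.18 TPM in normal livers, 21.5, 5.18 and 24.6 TPM in the empty group and 5.56, 9.35 and 5.84 TPM in the UTOpiA group. It was called higher in the empty group (log2 fold change 1.37 ± 0.47 SE, adjusted p = 0.0393 by edgeR), with empty replicates 1 and 3 well above the normal livers and replicate 2 among them, and the call was lost when any liver other than empty replicate 2 was left out (adjusted p = 0.0524 to 0.122 in those fits, with log2 fold change 1.37, adjusted p = 0.0549 without UTOpiA replicate 2).

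**Figure D4:**
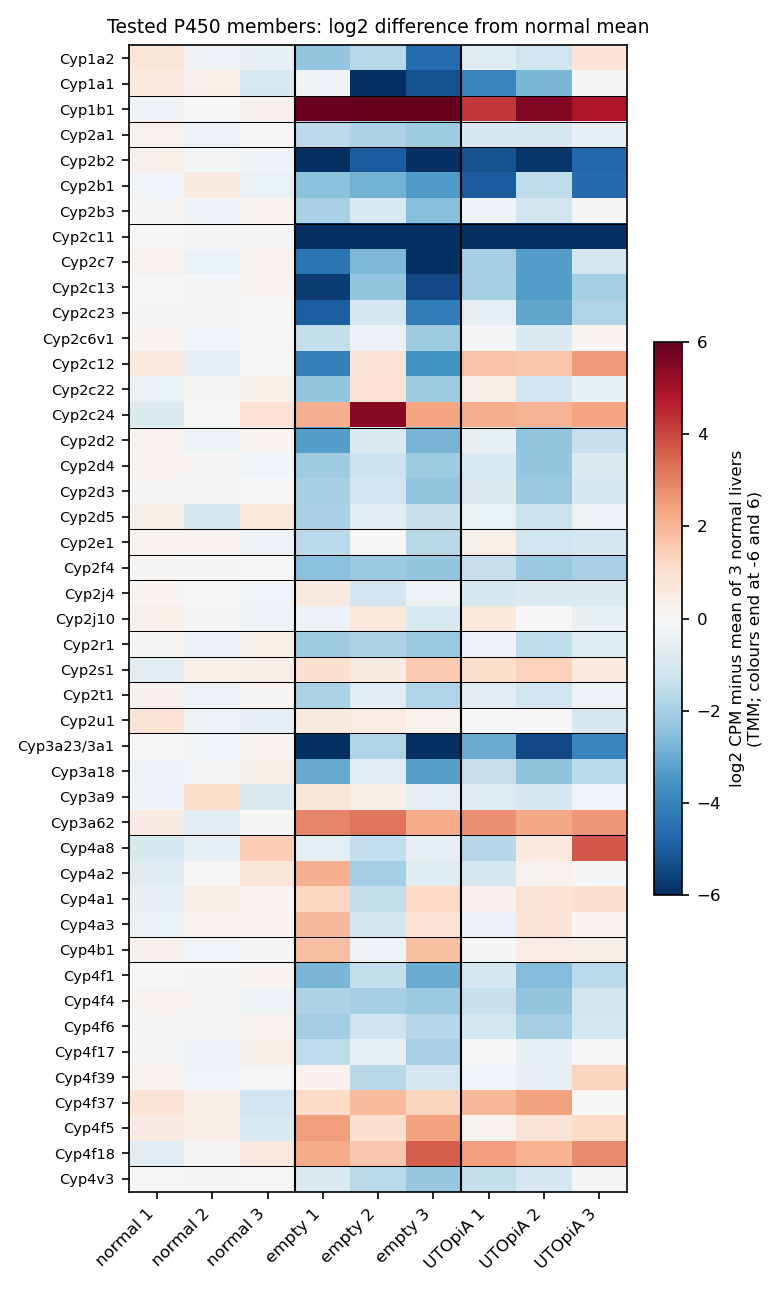
Colours show, for each of the 45 tested members (rows, by subfamily) and each of the 9 livers (columns), the log2 CPM (counts scaled to library size) after TMM normalisation minus the mean of the 3 normal livers. Blue columns for empty replicates 1 and 3 are darker than for empty replicate 2, with the Cyp4a rows reversed, and Cyp1b1, Cyp2c24 and Cyp3a62 are among the red rows.

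Comparing the UTOpiA group with the empty group addresses the effect of the treatment, both groups being ACLF. No member was called in either direction by edgeR (0% of all genes were called higher and 0% lower). At an unadjusted p under 0.05 there were 13 members, 9 higher and 4 lower in the UTOpiA group, that is 28.9% of the members against 10.3% of all genes, and the smallest adjusted p of a member was 0.27. The median log2 fold change was 0.39 over the members and 0.00 over all genes, and 30 of 45 members had a value above 0. DESeq2 called 2 members higher, Cyp1a2 and Cyp2r1 (0.364% of all genes), and 1 lower, Cyp1b1 (0.518%). limma on log2(TPM + 1) called 0. Over all alternatives the adjusted p ran from 0.032 to 0.816 for Cyp1a2, from 0.000269 to 0.816 for Cyp2r1 and from 6.01e-05 to 0.739 for Cyp1b1.

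Cyp2r1 and Cyp1b1 had the smallest p of the members in this comparison. By edgeR the log2 fold change was 1.34 ± 0.32 for Cyp2r1 (adjusted p = 0.27). It was -1.24 ± 0.30 for Cyp1b1 (adjusted p = 0.27), 0.99 ± 0.25 for Cyp2a1 (adjusted p = 0.309) and 2.35 ± 0.78 for Cyp1a2 (adjusted p = 0.395). Cyp2b3 (1.24 ± 0.42, adjusted p = 0.396 by edgeR) and Cyp2f4 (0.55 ± 0.21, adjusted p = 0.433) followed. On normalised counts the 3 UTOpiA livers were all above the 3 empty livers for 5 members, Cyp1a2, Cyp2a1, Cyp2c12, Cyp2f4 and Cyp2r1 (11.1% of the members and 6.15% of all genes). They were all below for 2, Cyp1b1 and Cyp2u1 (4.44% and 5.97%). On TPM, 4 members were all above and 4 all below (8.89% of the members each). There Cyp2f4 overlapped, and Cyp3a9 and Cyp4f5 were also below.

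The treatment comparison depended on single livers. Without empty replicate 2, edgeR called Cyp2c12 and Cyp2c13 higher (0.181% of all genes) and Cyp4b1 lower (0.153%, log2 fold change -1.54, adjusted p = 0.0421). Without UTOpiA replicate 2, it called 0 members higher (0.223% of all genes) and Cyp1b1 lower (0.119%, log2 fold change -1.64, adjusted p = 0.0455). Leaving out any of the other 7 livers gave 0 calls. The median over the members was 0.73 when empty replicate 2 or UTOpiA replicate 2 was left out, and 0.20 when UTOpiA replicate 1 was. DESeq2 called 15 members higher (2.56% of all genes) and 4 lower (1.00%) without empty replicate 2.

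Comparing the UTOpiA group with normal livers shows how far treated ACLF livers stood from normal ones. It shares the normal livers with the first comparison and the UTOpiA livers with the second. Of the 45 members, 10 were called lower (6.81% of all genes) and 3 higher, Cyp1b1, Cyp3a62 and Cyp4f18 (18.2%). The median log2 fold change was -0.72 over the members and 0.05 over all genes. Those lower included Cyp2c11, Cyp2b2, Cyp2b1, Cyp2f4 and Cyp4f4 (log2 fold change -1.51 ± 0.30 SE, adjusted p = 0.00375 by edgeR), as well as Cyp2d3, Cyp2d4, Cyp4f1, Cyp4f6 and Cyp3a23/3a1. The count lower was 6, 5 and 6 without normal replicates 1, 2 and 3 (5.89%, 5.70% and 5.91% of all genes), and 6 without UTOpiA replicate 2 (5.06%). Without empty replicate 2, which is in neither of these groups, 14 members were called lower (7.38% of all genes) and 5 higher (18.8%). The calls of Cyp2d3, Cyp2d4 and Cyp4f1 were lost without any of the normal livers or UTOpiA replicate 2, that of Cyp4f1 also without UTOpiA replicate 3, and that of Cyp2b1 without normal replicate 2 or UTOpiA replicate 3 (adjusted p up to 0.0755 for Cyp2d3, 0.0777 for Cyp2d4, 0.0627 for Cyp4f1 and 0.0729 for Cyp2b1). Without UTOpiA replicate 2 the log2 fold changes were -0.91 for Cyp2d3 and -0.88 for Cyp2d4, below the 2-fold threshold, and Cyp4f1 missed the adjusted p (log2 fold change -1.30, adjusted p = 0.0612). With library totals only, the calls of Cyp2b1, Cyp2d3, Cyp2d4, Cyp3a23/3a1 and Cyp4f6 were lost. The added calls without empty replicate 2 were Cyp2c7 (log2 fold change -1.84, adjusted p = 0.0405), Cyp2c13 (log2 fold change -2.35, adjusted p = 0.000933), Cyp2d2 (log2 fold change -1.20, adjusted p = 0.0473) and Cyp3a18 (log2 fold change -1.78, adjusted p = 0.00154) among those lower, and Cyp2c12 and Cyp2c24 (log2 fold change 2.13, adjusted p = 0.00286) among those higher. Cyp2c13 was also called lower without empty replicate 1 or 3 (adjusted p = 0.0328 and 0.0409), Cyp2c7 and Cyp3a18 without empty replicate 3 (0.0483 and 0.0401), Cyp2r1 without UTOpiA replicate 1 (0.0241) and Cyp4v3 without UTOpiA replicate 3 (0.035), and DESeq2 with all livers called Cyp3a18 lower (adjusted p = 0.00995). Cyp1a2, Cyp2b3 and Cyp2c6v1, whose UTOpiA livers overlapped the normal livers, were not called.

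The genes that serve the P450 enzymes were counted in the same fit. Of 6 electron transfer genes, 5 were called lower than normal in empty livers (11.1% of all genes) and 4 in UTOpiA livers (6.81%). Cyb5a was at 1201, 1073 and 1168 TPM in normal livers, 560.3, 1035 and 488 TPM in the empty group and 1664, 929 and 1048 TPM in the UTOpiA group and was called lower in the empty group (log2 fold change -1.23 ± 0.36 SE, adjusted p = 0.0177 by edgeR), a call lost without empty replicate 1 (adjusted p = 0.0586) or replicate 3 (0.0605). Por was at 265, 220.4 and 209.9 TPM in normal livers, 105, 352 and 84 TPM in the empty group and 194, 68.7 and 128 TPM in the UTOpiA group, with empty replicate 2 the highest of all livers, and did not pass the test (log2 fold change -0.87 ± 0.59 SE, adjusted p = 0.251 by edgeR), but was called lower without that liver (log2 fold change -1.81, adjusted p = 0.0118). Of 9 haem synthesis genes, 5 were called lower (11.1% of all genes) and 1 higher (20.7%) in the empty group. The gene called higher was Alas2, the erythroid form of the first enzyme, at 0.643, 0.471 and 0.199 TPM in normal livers, 6.02, 13.2 and 5.6 TPM in the empty group and 4.29, 3.28 and 4.71 TPM in the UTOpiA group. Markers of red cell precursors, a list that itself holds Alas2, summed to 95.7 to 266 TPM in normal livers, 2176 to 3209.6 in empty livers and 723 to 1183 in UTOpiA livers, with 3 of 4 tested called higher and 1 lower in the empty group, and their part was not tested. Alas1, the first and rate-limiting step in liver, was at 212, 294 and 171 TPM in normal livers, 126, 149 and 83.2 TPM in the empty group and 172, 102 and 134 TPM in the UTOpiA group and fell in the empty group (log2 fold change -1.42 ± 0.34 SE, adjusted p = 0.00789 by edgeR). Hmox1, the inducible haem oxygenase, was at 25.9, 20.5 and 24.3 TPM in normal livers, 358, 406 and 304 TPM in the empty group and 169.8, 152 and 447 TPM in the UTOpiA group, and rose in the empty group (log2 fold change 3.40 ± 0.54 SE, adjusted p = 0.00113 by edgeR). Of 20 transcription factors and receptors that regulate these families, 7 were called lower in the empty group (11.1% of all genes), among them Hnf4a (log2 fold change -1.22 ± 0.27 SE, adjusted p = 0.00511 by edgeR), at 166, 179 and 172 TPM in normal livers, 124, 84.1 and 109.96 TPM in the empty group and 131, 106 and 138 TPM in the UTOpiA group. The calls of Cyb5a, Alas1 and Hnf4a were lost in all 3 limma fits on TPM and with library totals only, where the log2 fold change was as small as -0.70 for Cyb5a, -0.89 for Alas1 and -0.67 for Hnf4a. P450 genes were also counted by list. The list of CAR-responsive genes held Cyp2b1, Cyp2b2, Cyp2b3 and Cyp2c6v1, and whether CAR drove each of them was not tested. In the empty group 2 of 3 tested male-specific P450 genes were called lower, and 2 of 4 female-specific. So were 1 of 3 AhR-responsive (with 1 higher), 3 of 4 CAR-responsive, 0 of 4 PXR-responsive (with 1 higher) and 0 of 4 PPARα-responsive genes. Among all genes 11.1% were lower and 20.7% higher. These counts hold for edgeR with all 9 livers, where none of these lists had a call in UTOpiA vs empty. Leaving out empty replicate 2, edgeR called 3 of 3 male-specific, 3 of 4 female-specific, 4 of 4 CAR-responsive and 2 of 4 PXR-responsive genes lower in the empty group (12.3% of all genes) and 2 of 4 PPARα-responsive genes higher (20.4%). DESeq2 with all livers called 2 of 4 PXR-responsive and 4 of 4 CAR-responsive genes lower there (10.1%).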

How the data were processed

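Bulk liver RNA-seq of 9 rats was analysed. The authors deposited whole-number read counts per gene without normalisation and TPM, which they scaled by gene length. Reads were trimmed (Cutadapt per the methods, Trimmomatic per the submitters' processing notes), aligned with HISAT2 and uniquely mapped reads counted with featureCounts, so reads shared by near-identical paralogs are missing. The processing notes name rn6 and the methods a mouse build, the library kit differs between methods and labels, and whether counting used strand is not given in the sources used here. All printed coordinates are RefSeq GRCr8, and no position was converted. Promoters were matched for 48 of 53 members by gene ID or symbol, using the first start listed.

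Members and gene lists were chosen with earlier results of these data known. Counts were tested with edgeR 4.0.16 in R 4.3.3 (filterByExpr, TMM, robust quasi-likelihood test, two-sided, all 9 libraries, 1 mean per group), with Benjamini-Hochberg adjustment over 14089 genes. Calls needed more than a 2-fold difference and an adjusted p below 0.05. Values are per liver, and a TPM is a level per length, while a log2 fold change is fitted on TMM-normalised counts. TMM factors ran from 0.802 to 1.32. Named were the 2 most abundant members of each subfamily with a mean of at least 1 TPM, members called higher in an ACLF group, the 6 lowest of those called lower in the empty group, members called in UTOpiA vs empty by DESeq2 with the 6 smallest p, and members of 6 lists (sex-specific, AhR, CAR, PXR and PPARα genes). Por, Cyb5a, Alas1, Hmox1 and the regulators Ahr, Nr1i2, Nr1i3, Ppara and Hnf4a are no members, and the rule lists them by name. Other genes, among them Cyp2d4, Cyp4f6, Fgb, Mpo and Elane, were named after their values were seen. Alternatives were DESeq2 1.42.0, limma 3.58.1 on log2(TPM + 1) or log2(TPM + 0.1), other normalisations and filters, the replicate number as a block, and each library left out. The tests were tried on simulated data. None of the 9 pairs of libraries within a group agreed within sampling noise. Precision is limited by 3 livers a group, and low counts add counting error to the spread between livers.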

Additional observations from a re-analysis of the deposited data

How the results depend on the processing

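Against normal livers, members called higher in the empty group numbered 3, not 6, under limma on log2(TPM + 1) without a filter and with at least 10 counts in every library (3224 and 1644 of all genes, against 2916). These fits held 49 and 35 members, against 45. Of the 6 called higher in the main fit, Cyp1b1, Cyp2c24, Cyp4f5 and Cyp4f18 were left untested by the 10-count filter. The median over members was -0.78 and -0.83 under limma without a filter and with library totals only. Library totals moved the median of all genes from 0.04 to 0.60, so the median over members stayed below that over all genes, with 14 members called lower and 7 higher (682 and 4477 of all genes, against 1560 and 2916). In UTOpiA vs empty DESeq2 called 2 higher and 1 lower where edgeR called 0. In UTOpiA vs normal, members called higher numbered 1 with at least 10 counts in every library and 5 with only the 6 libraries compared (1384 and 2278 of all genes, against 2563). These fits held 35 and 43 members, and the first left Cyp1b1 and Cyp4f18 untested. Members called lower numbered 5 with library totals only and 6 with the replicate block (486 and 897 of all genes, against 959). With 1 liver left out, edgeR called 4 to 9 members higher and 16 to 27 lower in the empty group (2621 to 2981 and 1336 to 1776 of all genes). In UTOpiA vs empty it called 0 to 2 higher and 0 to 1 lower (0 to 32 and 0 to 22). In UTOpiA vs normal it called 2 to 5 higher and 5 to 14 lower (2091 to 2707 and 725 to 1104). DESeq2 with 1 ACLF liver left out gave 4 to 9 higher and 20 to 28 lower in the empty group (2923 to 3287 and 1471 to 1831 of all genes). It gave 0 to 15 higher and 0 to 4 lower in UTOpiA vs empty (23 to 353 and 26 to 348). In UTOpiA vs normal it gave 3 to 5 higher and 8 to 16 lower (2357 to 2909 and 880 to 1258). The cause was not tested, except that filters leave fewer genes to test. Nothing in the sources used here says that replicate numbers pair livers. Same-numbered empty and UTOpiA livers correlated at -0.144, -0.183 and -0.147 in their deviations from the group means. Those with different numbers correlated at -0.186 to 0.288. With 3 livers a group, centred on their own mean, such values cannot show whether livers were paired. The replicate block gave 5 higher and 16 lower members in the empty group (2746 and 1532 of all genes). In UTOpiA vs empty it gave 0 calls, among members and among all genes.

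Of 114 log2 fold changes (38 named P450 genes in 3 comparisons), 26 changed sign under at least 1 alternative, and none of these 26 had passed the test with all livers (lowest adjusted p = 0.240 by edgeR). The called ones kept their sign. Of the values with a changed sign, 3 passed the test, all by DESeq2 with a liver left out. These were Cyp4a2 in empty vs normal without empty replicate 1 (adjusted p = 0.0302), Cyp2b1 in UTOpiA vs empty without UTOpiA replicate 2 (0.00512) and Cyp3a23/3a1 in UTOpiA vs empty without empty replicate 2 (0.000288). In empty vs normal the sign changed for 5 genes. Cyp2c22, at -0.44, took values of 0.067 with all livers and of 0.0090 and 0.024 with a liver left out. Cyp2j10, at -0.07, took values of 0.31, 0.32, 0.46 and 0.032 with all livers and of 0.099, 0.053, 0.22, 0.069 and 0.23 with a liver left out. Cyp2j4, at -0.17, took values of 0.19 and 0.37 with all livers and of 0.15 and 0.17 with a liver left out. Cyp3a9, at 0.06, took values of -0.12, -0.29, -0.23, -0.018 and -0.20 with a liver left out. Cyp4a2, at 0.68, took values of -1.36 and -1.34 with a liver left out. In UTOpiA vs empty the sign changed for 13 genes. Cyp1a1, at 0.39, took values of -0.18, -0.16, -1.48, -0.20, -0.17 and -1.50 with a liver left out. Cyp2b1, at 0.07, took values of -0.33, -0.99 and -0.50 with all livers and of -0.15, -2.27, -0.20 and -2.32 with a liver left out. Cyp2c11, at -1.67, took values of 0.55 and 0.54 with a liver left out. Cyp2c22, at 0.12, took values of -0.039 with all livers and of -0.33, -0.30, -0.35, -0.32 and -0.36 with a liver left out. Cyp2e1, at 0.39, took values of -0.25 and -0.26 with a liver left out. Cyp2j10, at 0.18, took values of -0.11, -0.16, -0.13 and -0.17 with a liver left out. Cyp2s1, at -0.04, took values of 0.32, 0.15, 0.31 and 0.14 with a liver left out. Cyp3a18, at 0.02, took values of -0.15 with all livers and of -0.34, -0.38, -0.21, -0.034, -0.36, -0.39, -0.22 and -0.047 with a liver left out. Cyp3a23/3a1, at -0.52, took values of 0.39, 0.44 and 0.46 with all livers and of 2.44 and 2.41 with a liver left out. Cyp4a1, at -0.09, took values of 0.098, 0.10 and 0.00084 with all livers and of 0.28, 0.18, 0.071, 0.25, 0.17 and 0.065 with a liver left out. Cyp4a2, at -0.98, took values of 1.06 and 1.03 with a liver left out. Cyp4a3, at -0.73, took values of 0.14 and 0.11 with a liver left out. Cyp4f18, at -0.29, took values of 0.63 and 0.62 with a liver left out. In UTOpiA vs normal the sign changed for 8 genes. Cyp1a2, at -0.18, took values of 0.063 with all livers and of 0.27, 0.038, 0.16, 0.029 and 0.14 with a liver left out. Cyp2c22, at -0.32, took values of 0.028 with all livers. Cyp2c6v1, at -0.21, took values of 0.055 and 0.11 with all livers and of 0.023 and 0.0065 with a liver left out. Cyp2j10, at 0.11, took values of -0.23 with a liver left out. Cyp2u1, at -0.36, took values of 0.010 and 0.056 with all livers and of 0.15 with a liver left out. Cyp4a2, at -0.30, took values of 0.044, 0.045 and 0.086 with all livers and of 0.11 with a liver left out. Cyp4a3, at 0.26, took values of -0.086 and -0.10 with a liver left out. Cyp4a8, at 1.94, took values of -0.58 with a liver left out.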

Other observations

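Of 15 tested P450 genes outside families 1 to 4, 2 were called higher (20.7% of all genes) and 2 lower (11.1%) in empty vs normal, and 0 in UTOpiA vs empty (edgeR, all 9 livers), and these were named after their values were seen. When empty replicate 2 was left out, edgeR called 2 higher and 6 lower in empty vs normal (20.4% and 12.3% of all genes) and 1, Cyp27a1, higher in UTOpiA vs empty (0.181%). Tbxas1, thromboxane synthase, was at 1.59, 1.2 and 0.947 TPM in normal livers, 20.6, 12.6 and 15.7 TPM in the empty group and 9.59, 14.5 and 5.53 TPM in the UTOpiA group (log2 fold change 3.20 ± 0.32 SE, adjusted p = 0.000125 by edgeR in empty vs normal), and Cyp7b1, an oxysterol hydroxylase, at 4.19, 3.16 and 3.2 TPM in normal livers, 30.1, 19.6 and 20.5 TPM in the empty group and 13.4, 26.9 and 11.3 TPM in the UTOpiA group (log2 fold change 2.23 ± 0.28 SE, adjusted p = 0.000338 by edgeR). All ACLF livers were above all normal livers for both. Cyp39a1, another oxysterol hydroxylase, was at 116, 117 and 119 TPM in normal livers, 33.3, 47.2 and 23.8 TPM in the empty group and 51, 27.4 and 48.7 TPM in the UTOpiA group (log2 fold change -2.26 ± 0.38 SE, adjusted p = 0.00135 by edgeR), below normal in every ACLF liver. Cyp17a1, a steroid hydroxylase, was at 19.1, 22.5 and 32.5 TPM in normal livers, 3.52, 4.99 and 8.74 TPM in the empty group and 26.3, 23.5 and 11.4 TPM in the UTOpiA group and fell in the empty group (log2 fold change -2.65 ± 0.35 SE, adjusted p = 0.000434 by edgeR). All 3 UTOpiA livers were above the 3 empty livers for Cyp17a1, and the difference did not pass the test (log2 fold change 2.01 ± 0.34 SE, adjusted p = 0.177 by edgeR), nor did it by edgeR with any 1 liver left out. DESeq2 called Cyp17a1 higher in UTOpiA vs empty (log2 fold change 1.99, adjusted p = 8.28e-05). It was called in 7 of 26 alternatives, all of them DESeq2 fits, and the adjusted p over the alternatives ran from 1.30e-06 to 0.61. Cyp7a1, the rate-limiting enzyme of bile acid synthesis, was at 161, 397 and 186 TPM in normal livers, 42.7, 429.9 and 66.1 TPM in the empty group and 547, 327 and 200.04 TPM in the UTOpiA group, with overlapping groups, and was called lower in empty vs normal without empty replicate 2 (log2 fold change -2.73, adjusted p = 0.00243).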
